A study of Mus musculus with 12 samples.

Results

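Expression of 10 tight junction genes was examined in the colons of TSP-1-/- and WT mice: the claudins Cldn1, Cldn2, Cldn3, Cldn4, Cldn7, Cldn8, Cldn15 and Cldn23, occludin (Ocln) and ZO-1 (Tjp1). They were picked by name, with earlier results of these data known. A probe was taken when the array's annotation gave it a single symbol that was one of these names. Each of the 10 genes had 1 probe, out of 28815 probes with values on all 12 arrays and 19935 named genes. RNA from colon was hybridized to Affymetrix mouse gene arrays, 1 array per sample, with 3 arrays that the labels call biological replicates in each of 4 groups. TSP-1-/- and WT mice of the C57BL/6 strain, 7 weeks old and male, received an injection of 10 mg/kg azoxymethane (AOM), a carcinogen with effect in the colon, and 4 cycles of 1.5% dextran sodium sulfate (DSS), which injures the colonic epithelium, in the drinking water. The labels place the injection on the first day of DSS and the methods 1 week before it. The mice were killed 15 weeks after AOM, and these are the TSP-1-/- AOM/DSS and WT AOM/DSS groups. The TSP-1-/- water and WT water groups drank water only, and their age at death is not given in the sources used here. TSP-1-/- mice carry a targeted mutation in Thbs1, the gene of thrombospondin 1, in all cells of the body. This allele keeps the rest of the gene, so a Thbs1 probe is no check of the genotype. Thbs1 had log2 values of 0.81, 0.85 and 0.93 on the TSP-1-/- AOM/DSS arrays, against 0.27, -0.16 and -0.07 on the WT AOM/DSS arrays.

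Tight junctions close the space between epithelial cells near their luminal side. Claudins are membrane proteins that polymerize into the strands of the junction, and the set of claudins that a cell makes determines which ions can pass. Claudin-2 and claudin-15 form pores for cations and water. Claudin-1, claudin-3, claudin-4 and claudin-8 are generally counted as sealing claudins. Claudin-7 and claudin-23 have no settled single role. Occludin is a further membrane protein of the strands, and ZO-1 is a cytoplasmic scaffold that ties claudins and occludin to the actin cytoskeleton. In the gut, claudin-2 is known as a protein of the crypt and claudin-15 as one that sustains the sodium supply of the lumen, whereas claudin-8 is a protein of the distal colon.

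The values are log2 signals relative to a baseline of each probe, so a value of 1 is a signal 2-fold above that baseline. They hold no absolute level. The level of one gene therefore cannot be set against that of another, and whether a marker of the epithelium is present or absent in a sample cannot be read from them. The RNA came from colon tissue and not from sorted cells, so that fewer cells of a type and less RNA per cell cannot be told apart. The study's methods name both normal and diseased tissue, and its heatmap legend calls the treated samples tumors. The study reports a lower tumor burden in TSP-1-/- than in WT mice. The share of tumor in each sample is not given, and its part in the differences was not tested. The water arrays are on another baseline than the AOM/DSS arrays, and their labels carry the protocol of a different DSS experiment. Treatment and array set thus cannot be told apart, and the genotypes were compared separately in each of the 2 array sets.

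Some arrays stood apart from the others of their group. The values were spread most widely on TSP-1-/- AOM/DSS replicate 3 (SD 0.751, against 0.293 to 0.453 on the other 11). The mean of 7 pancreatic enzyme genes was 5.82 on this array and between -0.34 and 1.37 on the other 11, and the mean of 8 epithelial genes (Epcam, Cdh1, keratins and others) was -0.50, the lowest of the 12. Hoxb13, a homeobox gene of the most distal gut, was at 0.78, -0.06 and 0.06 on the TSP-1-/- AOM/DSS arrays, against 0.43, -6.33 and -5.89 on the WT AOM/DSS arrays. On the water arrays it was low on TSP-1-/- replicate 3 (-4.24) and WT replicate 3 (-3.68) and between 1.52 and 2.48 on the other 4. WT AOM/DSS replicate 1 was thus on the side of the TSP-1-/- AOM/DSS arrays for this marker of position. It was so too for the mean of 3 Hox genes of more proximal position. That mean was -2.61, -2.68 and -3.02 on the TSP-1-/- AOM/DSS arrays, against -2.99, 0.68 and 0.55 on the WT AOM/DSS arrays.

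On AOM/DSS, 1 of the 10 genes differed between the genotypes. Cldn15 was lower in TSP-1-/- than in WT colons, 2.28-fold (log2 difference -1.19, 95% confidence interval -1.79 to -0.58, limma adjusted p = 0.0315). To be called, a gene had to reach at least a 2-fold difference and an adjusted p under 0.05 after Benjamini-Hochberg correction over all 28815 probes. By this rule 2.78% of all probes were called, with 500 (1.74%) above and 302 (1.05%) below WT in the TSP-1-/- arrays. The split moved with the scaling. It was 396 higher and 414 lower after centring each array on its median and 259 higher and 391 lower after quantile normalization within each set, and Cldn15 was called in both. It was 345 higher and 52 lower when the arrays were shifted by their epithelial genes and 78 higher and 105 lower after a further quantile normalization of the 12 arrays, and Cldn15 was lower but not called in these. In a fit of the 6 AOM/DSS arrays alone far fewer probes were called, and Cldn15 was not. In the main fit the call on 1 of 10 genes stands against 2.78% of all probes. Of the 10 log2 differences 4 were positive and 6 negative, with a median of -0.24, where the median over all probes was 0.13. An unadjusted p under 0.05 was reached by 3 of the 10, Cldn15, Cldn3 and Cldn23, each lower in TSP-1-/-, where 32.3% of all probes reached it in either direction. For 2 of them, Cldn15 and Cldn3, the 3 TSP-1-/- arrays all lay below the 3 WT arrays; 10.7% of all probes showed such a separation in this direction and 30.8% in either.

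**Figure D1:**
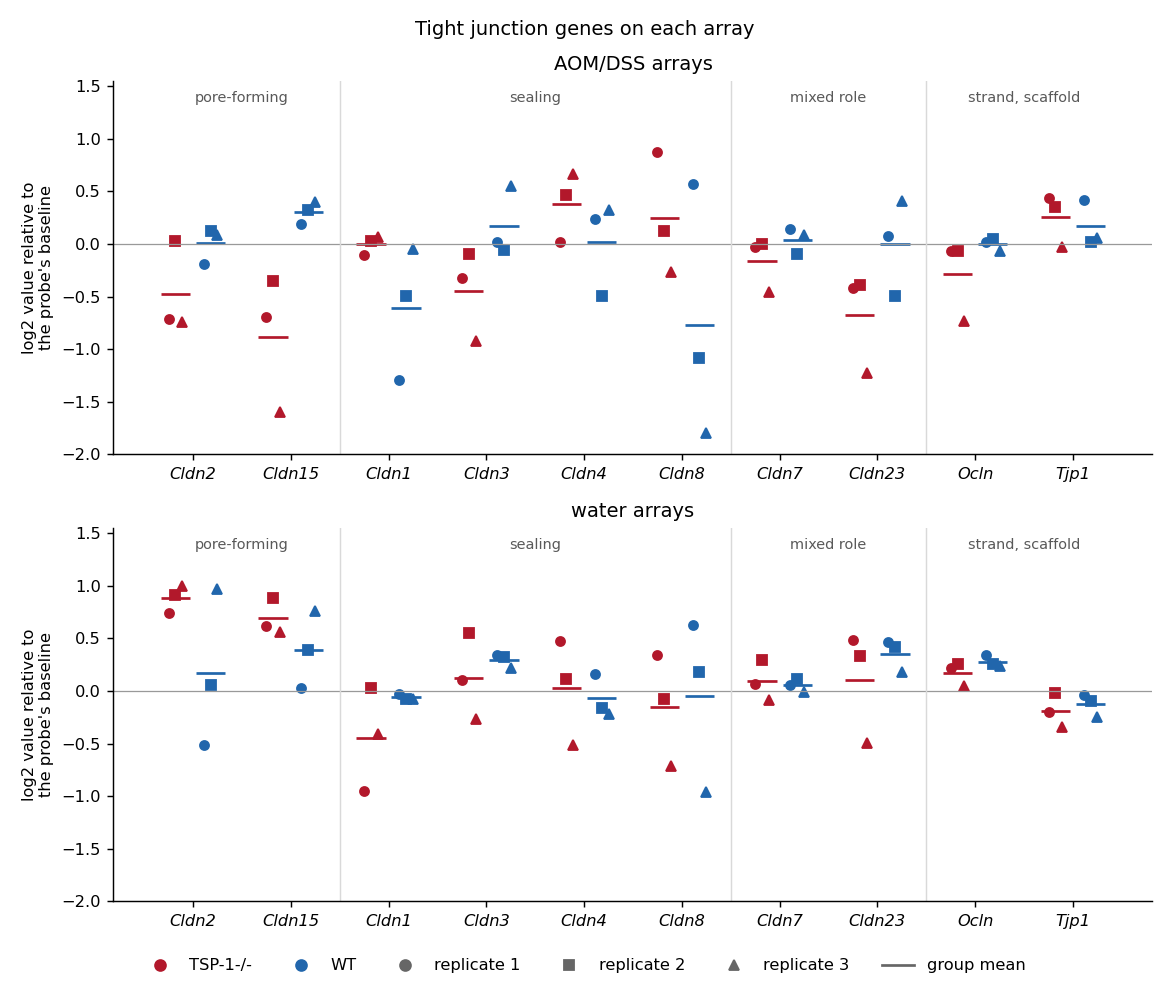
Log2 value of each of the 10 genes (horizontal axis, ordered by role) on every array, relative to the baseline of the probe, with TSP-1-/- in red left of WT in blue. Symbols give the replicate and short lines the group mean of 3 arrays; the upper panel holds the AOM/DSS arrays and the lower panel the water arrays, which are on another baseline. For Cldn15 the red points of the upper panel (-1.60 to -0.35) lie below the blue points (0.19 to 0.40).

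Both pore-forming claudins had lower means in TSP-1-/- AOM/DSS colons, and Cldn15 passed the test. Cldn15 was at -0.69, -0.35 and -1.60 on the TSP-1-/- AOM/DSS arrays, against 0.19, 0.33 and 0.40 on the WT AOM/DSS arrays. Its spread was wide in the TSP-1-/- group (mean -0.88 ± 0.65, SD, n = 3) and narrow in the WT group (0.31 ± 0.10, SD, n = 3). The lowest of the 6 values was that of TSP-1-/- replicate 3, the array with the pancreatic signal. Without that array the difference was -0.83, which is 1.77-fold, and Cldn15 lost its call (limma adjusted p = 0.0718). It also lost the call without WT replicate 2 (-1.18, adjusted p = 0.0576) and without WT replicate 3 (-1.14, adjusted p = 0.11), with differences that stayed over 2-fold. When every array was shifted by its mean over the 8 epithelial genes, Cldn15 remained lower in TSP-1-/- by 0.91 on the log2 scale (adjusted p = 0.0746), so the difference relative to those genes was smaller and not called. On WT AOM/DSS replicate 1, where Hoxb13 was as high as on the TSP-1-/- arrays, Cldn15 was at 0.19, the lowest of the WT values. This is 1 array, and the part of position along the colon in the Cldn15 difference was not tested.

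Cldn2 was at -0.71, 0.03 and -0.74 on the TSP-1-/- AOM/DSS arrays, against -0.19, 0.13 and 0.08 on the WT AOM/DSS arrays. The groups overlapped, since TSP-1-/- replicate 2 lay among the WT values. The log2 difference of -0.48 (95% confidence interval -1.17 to 0.20) did not pass the test (limma adjusted p = 0.297). The promoters of these 2 genes are shown because they are the pair of pore-forming claudins, from RefSeq (mouse build GRCm38.p6), each with 250 bases before and 50 bases after the transcription start. Capitals mark matches, on either strand, to 4 motifs: TTTATG and TTTATT, letters bound by CDX homeobox factors, TGACTCA, the AP-1 site, and TATAAA, the TATA box.
Cldn2, chrX:139800558-139800857, plus strand: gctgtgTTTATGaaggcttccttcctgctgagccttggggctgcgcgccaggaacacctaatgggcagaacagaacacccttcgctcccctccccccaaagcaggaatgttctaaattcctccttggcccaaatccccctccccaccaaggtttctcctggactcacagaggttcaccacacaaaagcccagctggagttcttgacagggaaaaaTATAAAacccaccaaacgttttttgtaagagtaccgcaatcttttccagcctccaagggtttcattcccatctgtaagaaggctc
Cldn15, chr5:136967619-136967918, plus strand: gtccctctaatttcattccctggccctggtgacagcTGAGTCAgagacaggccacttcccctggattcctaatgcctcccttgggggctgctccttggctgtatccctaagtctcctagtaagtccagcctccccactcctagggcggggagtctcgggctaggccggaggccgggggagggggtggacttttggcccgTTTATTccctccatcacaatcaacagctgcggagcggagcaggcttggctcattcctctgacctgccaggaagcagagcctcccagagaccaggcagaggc
The Cldn2 promoter held 1 TTTATG match, at position -244, and a TATA box at position -35. The Cldn15 promoter held 1 AP-1 match at position -214 and 1 TTTATT match at position -51, and no TATA box. Among 32851 mouse promoters of this length, TTTATG was found in 11.9%, TTTATT in 19.6%, TGACTCA in 5.2% and TATAAA in 13.6%. No 2 of these matches overlapped in either promoter. A match of letters does not show that a factor binds there.

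CDX2, an intestinal homeobox factor, is known from human intestinal cells to act on the claudin-2 promoter. Cdx2 was at -1.01, -0.26 and -2.08 on the TSP-1-/- AOM/DSS arrays, against -0.11, 0.02 and 0.05 on the WT AOM/DSS arrays. The TSP-1-/- values lay below the WT values, as for 10.7% of all probes. The log2 difference of -1.10 missed the threshold (limma adjusted p = 0.0661). Its relative Cdx1 was at -0.34, -0.32 and -1.23 in TSP-1-/- and at 0.22, 0.01 and 0.13 in WT (log2 difference -0.75, adjusted p = 0.051). For both factors the lowest value was again on TSP-1-/- replicate 3, and the part of that array in these differences was not tested. Both were picked, with their values known, from 14 measured transcription factors linked to claudins, of which 6 had a positive difference. The part of Cdx2 in the Cldn2 difference was not tested.

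None of the 4 sealing claudins passed the test, and their differences ran in both directions. Cldn8 had the largest difference of the 4, 2.02-fold higher in TSP-1-/-, with a wide interval (log2 difference 1.02, 95% confidence interval -0.22 to 2.25, limma adjusted p = 0.229). It was at 0.88, 0.13 and -0.26 on the TSP-1-/- AOM/DSS arrays, against 0.57, -1.08 and -1.80 on the WT AOM/DSS arrays. WT replicate 1 lay inside the TSP-1-/- range, and WT replicates 2 and 3 lay below it. These 2 arrays are those with low Hoxb13. On the water arrays Cldn8 was likewise lowest on replicate 3 of TSP-1-/- (-0.71) and of WT (-0.96), the 2 water arrays with low Hoxb13. The part of position along the colon in the Cldn8 difference was not tested. Without WT AOM/DSS replicate 1 the difference was 1.69 and passed the test (adjusted p = 0.0465); without WT AOM/DSS replicate 3 it was 0.50 (adjusted p = 0.629).

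**Figure D2:**
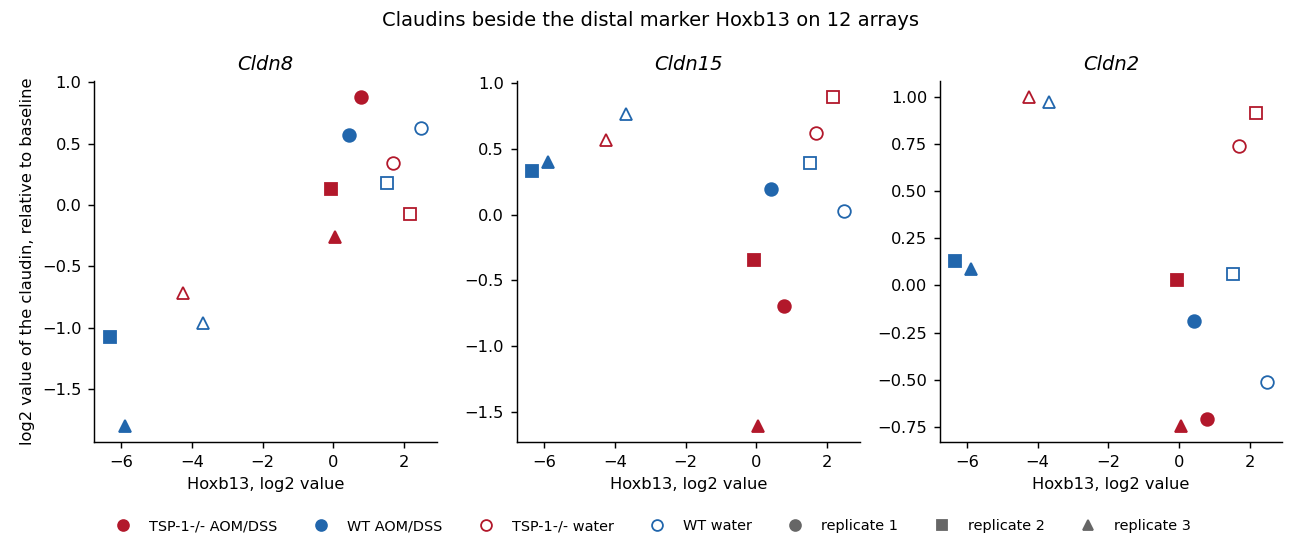
Log2 value of Cldn8, Cldn15 and Cldn2 (vertical axes, each with its own range) against that of Hoxb13 (horizontal axis) on the 12 arrays; red is TSP-1-/-, blue is WT, filled symbols are AOM/DSS and open symbols water, which is on another baseline, so the 2 sets are read separately. In each set the 2 arrays with low Hoxb13 have the 2 lowest Cldn8 values, and among the filled symbols of Cldn15 the 3 red ones (-0.35 and below) lie below the 3 blue ones (0.19 and above).

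Cldn1 was at -0.11, 0.03 and 0.07 on the TSP-1-/- AOM/DSS arrays, against -1.29, -0.50 and -0.04 on the WT AOM/DSS arrays. The groups overlapped at WT replicate 3, and the log2 difference was 0.61 (95% confidence interval -0.02 to 1.23, adjusted p = 0.163). The spread here was in the WT group, where replicate 1 was the lowest. Without that array the difference was 0.27.

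Cldn3 and Cldn4 lie next to each other on chromosome 5, and their differences had opposite signs. Cldn3 was at -0.32, -0.10 and -0.92 on the TSP-1-/- AOM/DSS arrays, against 0.02, -0.06 and 0.55 on the WT AOM/DSS arrays. The groups did not overlap, although TSP-1-/- replicate 2 and WT replicate 2 were close together, and the log2 difference was -0.62 (95% confidence interval -1.16 to -0.07, limma adjusted p = 0.115). Cldn4 was at 0.02, 0.47 and 0.66 on the TSP-1-/- AOM/DSS arrays, against 0.24, -0.50 and 0.32 on the WT AOM/DSS arrays, and the log2 difference was 0.36 (95% confidence interval -0.24 to 0.97, adjusted p = 0.374). Whether the 2 neighbours differed from each other in their response to genotype was not tested. Their promoters are shown for this pair, from the same RefSeq source. Capitals mark TGACTCA and also CAGGTG, an E-box that the SNAI and ZEB repressors of epithelial genes can bind.
Cldn3, chr5:134985964-134986263, plus strand: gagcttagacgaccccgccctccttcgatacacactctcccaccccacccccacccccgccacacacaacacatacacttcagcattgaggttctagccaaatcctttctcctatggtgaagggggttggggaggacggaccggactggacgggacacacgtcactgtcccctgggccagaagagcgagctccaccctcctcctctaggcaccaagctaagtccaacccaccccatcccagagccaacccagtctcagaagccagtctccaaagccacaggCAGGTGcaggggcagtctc
Cldn4, chr5:134946885-134947184, minus strand: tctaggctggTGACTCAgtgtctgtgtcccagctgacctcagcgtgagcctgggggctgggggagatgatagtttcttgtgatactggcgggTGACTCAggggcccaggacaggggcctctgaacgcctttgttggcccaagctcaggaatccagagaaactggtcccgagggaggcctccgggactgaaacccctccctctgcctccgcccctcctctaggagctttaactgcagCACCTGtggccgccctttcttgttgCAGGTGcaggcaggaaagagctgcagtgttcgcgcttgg
The Cldn3 promoter held 1 E-box, at position 32 after the start, and no AP-1 site. The Cldn4 promoter held 2 E-boxes and 2 AP-1 sites, none of them overlapping. CAGGTG was found in 20.2% of the 32851 promoters. The genes of these repressors had positive log2 differences on AOM/DSS, and none was called: 1.01 for Zeb2 (adjusted p = 0.0619), 0.83 for Snai2 (adjusted p = 0.0701), 0.44 for Zeb1 and 0.42 for Snai1. Zeb2 was at 0.36, 0.50 and 1.22 on the TSP-1-/- AOM/DSS arrays, against -0.21, -0.13 and -0.60 on the WT AOM/DSS arrays. Snai2 was at 0.04, 0.47 and 1.00 on the TSP-1-/- AOM/DSS arrays, against -0.42, -0.55 and -0.01 on the WT AOM/DSS arrays. For both genes TSP-1-/- replicate 3 was the highest array and the groups did not overlap, as for 20.2% of all probes in this direction. The SNAI and ZEB genes were picked with their values known. They come from the list of 14 measured transcription factors linked to claudins, of which 6 had a positive difference. The part of these repressors in the Cldn3 and Cldn4 differences was not tested.

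Claudins of mixed role, occludin and ZO-1 differed by less than 2-fold. Cldn23 was at -0.42, -0.39 and -1.22 on the TSP-1-/- AOM/DSS arrays, against 0.08, -0.50 and 0.41 on the WT AOM/DSS arrays, with a log2 difference of -0.68 (95% confidence interval -1.34 to -0.01, limma adjusted p = 0.148). WT replicate 2 lay among the TSP-1-/- values. Cldn7 was at -0.03, 0.00 and -0.46 on the TSP-1-/- AOM/DSS arrays, against 0.14, -0.10 and 0.08 on the WT AOM/DSS arrays. Ocln was at -0.07, -0.06 and -0.73 on the TSP-1-/- AOM/DSS arrays, against 0.02, 0.05 and -0.06 on the WT AOM/DSS arrays. In both genes the mean of TSP-1-/- was pulled down by replicate 3. Without it the log2 difference of Cldn7 was -0.05, where it had been -0.20, and that of Ocln was -0.07, where it had been -0.29. Relative to the epithelial genes Ocln differed by -0.01 and Cldn7 by 0.07, a change of sign. Tjp1 was at 0.44, 0.36 and -0.03 on the TSP-1-/- AOM/DSS arrays, against 0.42, 0.02 and 0.06 on the WT AOM/DSS arrays, and its log2 difference was 0.09 (95% confidence interval -0.27 to 0.44). The intervals of Cldn4, Cldn7, Ocln and Tjp1 stayed within 2-fold in both directions, whereas those of Cldn1, Cldn2, Cldn3, Cldn8 and Cldn23 reached beyond it.

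**Figure D3:**
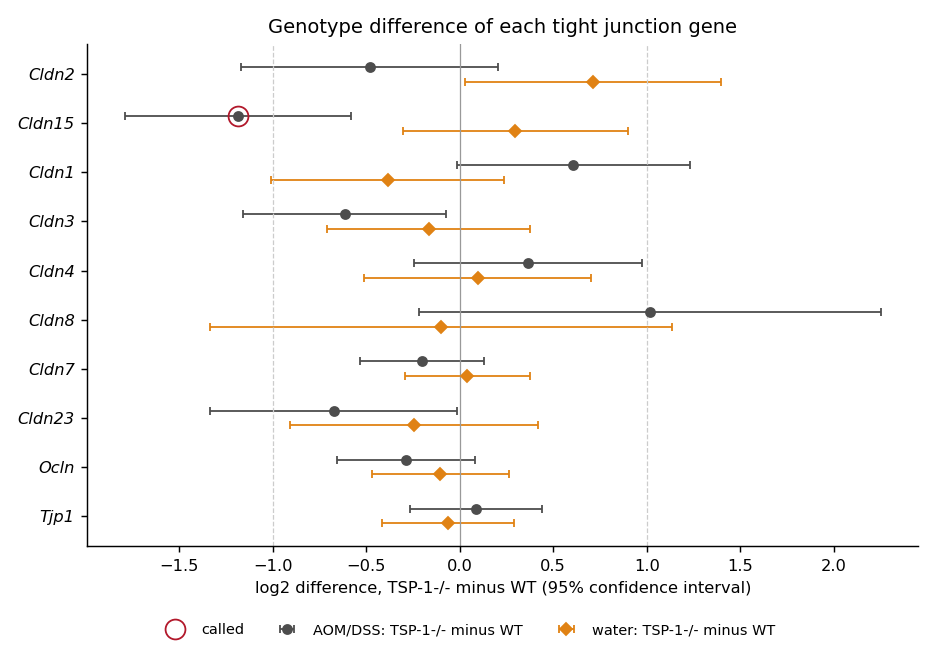
Log2 difference of TSP-1-/- minus WT (horizontal axis) with its 95% confidence interval from limma for each of the 10 genes, on AOM/DSS (grey circles) and on water (orange diamonds); dashed lines mark 2-fold. The ring marks Cldn15 on AOM/DSS (-1.19), the called difference, and the widest intervals are those of Cldn8.

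TSP-1-/- AOM/DSS replicate 3 had the lowest of the 6 AOM/DSS values for 7 of the 10 genes, Cldn2, Cldn15, Cldn3, Cldn7, Cldn23, Ocln and Tjp1. Of all probes, 21.2% had their lowest value on that array. For Cldn2 it was close to replicate 1 (-0.74 and -0.71). The other 3, Cldn1, Cldn4 and Cldn8, had their lowest value on WT replicates 1, 2 and 3, one each. Pancreatic genes were high and epithelial genes low on TSP-1-/- replicate 3, and the part of this in the 7 values was not tested. Adipocyte markers were low on this array too, but also on the other TSP-1-/- arrays and on WT replicate 1 (mean of 5 genes -2.07, -1.55 and -1.10 in TSP-1-/- AOM/DSS, against -1.35, 1.13 and 1.06 in WT AOM/DSS).

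When the claudins were combined by role, the pore-forming group was lower relative to the sealing group in TSP-1-/- AOM/DSS colons. The mean of Cldn2 and Cldn15 minus the mean of the 4 sealing claudins was -0.82, -0.29 and -1.06 on the TSP-1-/- AOM/DSS arrays, against 0.12, 0.76 and 0.49 on the WT AOM/DSS arrays. The group means were -0.72 ± 0.39 and 0.46 ± 0.32 (SD, n = 3 each), and the groups did not overlap. Of single probes, 10.7% separated in this direction and 30.8% in either, and no such share was computed for scores. The score includes Cldn15, which separated by itself. The difference between genotypes was -1.18, made of -0.84 in the pore-forming mean and 0.34 in the sealing mean. Of the 4 sealing claudins Cldn8 had the largest difference (1.02, not called), Cldn1 and Cldn4 smaller positive ones and Cldn3 a negative one (-0.62). The score does not change when an array is shifted as a whole, so it is the same relative to the epithelial genes. It was -1.01 without TSP-1-/- replicate 3 and between -1.39 and -1.01 when any single array was left out. No p is given for this score, because its genes were chosen with results of these arrays known. WT replicate 1, the array at the TSP-1-/- level of Hoxb13, had the lowest WT score (0.12), and the highest TSP-1-/- score was -0.29. The part of position along the colon in this score was not tested.

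**Figure D4:**
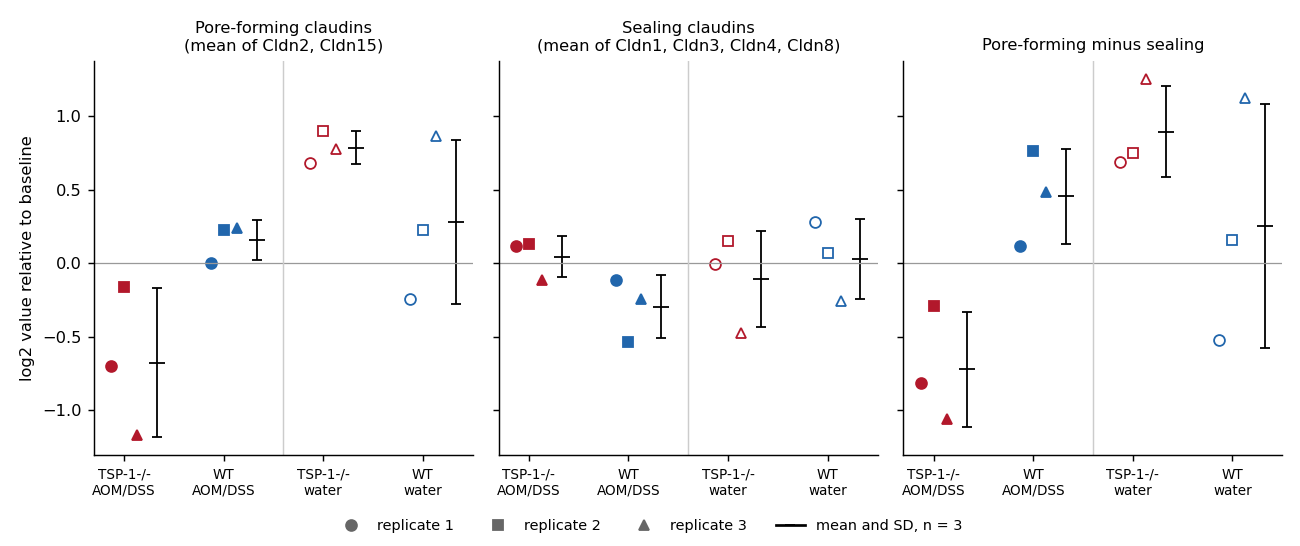
Mean log2 value per array of the pore-forming claudins (left), of the sealing claudins (middle) and their difference (right), with the 4 groups on the horizontal axis and the mean ± SD of 3 arrays beside the points. The water groups are on another baseline than the AOM/DSS groups. On AOM/DSS the TSP-1-/- differences (-1.06 to -0.29) lie below those of WT (0.12 to 0.76), and on water the ranges overlap (0.69 to 1.26 in TSP-1-/- and -0.52 to 1.13 in WT).

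On water, 0 of the 10 genes were called. Of all 28815 probes 0 were called by limma in this comparison (0%), and 288 had an unadjusted p under 0.05. Of the 10 genes, Cldn2 had an unadjusted p under 0.05 (0.0432, adjusted p = 1). It was at 0.74, 0.92 and 1.00 on the TSP-1-/- water arrays, against -0.51, 0.06 and 0.97 on the WT water arrays, a log2 difference of 0.71 (95% confidence interval 0.03 to 1.40). The WT values spread widely, and WT replicate 3, with low Hoxb13, lay inside the TSP-1-/- range. Cldn15 was at 0.62, 0.89 and 0.56 on the TSP-1-/- water arrays, against 0.02, 0.39 and 0.76 on the WT water arrays (log2 difference 0.30, 95% confidence interval -0.30 to 0.90). Both pore-forming claudins thus had a positive difference on water and a negative one on AOM/DSS. The other 8 genes had log2 differences between -0.39 (Cldn1) and 0.10 (Cldn4). In none of the 10 did the genotypes separate without overlap, where 5.17% of all probes did so (2.29% with TSP-1-/- higher and 2.88% with it lower). Cldn1 was scattered in TSP-1-/- water colons (-0.95, 0.02 and -0.41) and tight in WT water colons (-0.02, -0.08 and -0.07).

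The pore-forming minus sealing score was 0.69, 0.75 and 1.26 on the TSP-1-/- water arrays, against -0.52, 0.16 and 1.13 on the WT water arrays. The means were 0.90 ± 0.31 in TSP-1-/- and 0.25 ± 0.83 in WT (SD, n = 3 each), a difference of 0.64 with overlapping groups. In each genotype the score was highest on replicate 3, the array with low Hoxb13. Without WT water replicate 1 the difference was 0.26, and without WT water replicate 3 it was 1.08.

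The genotype difference on AOM/DSS was then set against that on water, a comparison in which a different baseline of the 2 array sets cancels. None of the 10 genes passed this test, in which 2 of 28815 probes (0.00694%) were called. Cldn15 had the largest change, -1.49 (95% confidence interval -2.34 to -0.63, unadjusted p = 0.00257, limma adjusted p = 0.235). Cldn2 followed with -1.19 (95% confidence interval -2.16 to -0.22, adjusted p = 0.267), then Cldn8 with 1.12 (adjusted p = 0.483) and Cldn1 with 0.99 (adjusted p = 0.289). The remaining 6 genes lay between -0.45 (Cldn3) and 0.27 (Cldn4). Thus Cldn15 was called on AOM/DSS and not on water, but the difference between the 2 was not called.

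AOM/DSS could not be fitted against water, because the 2 sets are on different baselines. The AOM/DSS values are relative to the median of all 12 arrays, so a gene whose 6 AOM/DSS values all lay on one side of 0 would separate completely from the water arrays. This was the case for 0 of the 10 genes and for 6.01% of all probes (2.02% above 0 and 3.99% below). With the water values of each gene shifted together until its 12 values had a median of 0, Cldn15 was lower on AOM/DSS than on water in TSP-1-/- (-0.98) and higher in WT (0.51). The same pattern of signs was found for Cldn2 (-0.59 in TSP-1-/- and 0.61 in WT), and the opposite one for Cldn1 (0.07 in TSP-1-/- and -0.93 in WT) and Cldn8 (0.45 in TSP-1-/- and -0.67 in WT). These are estimates across arrays normalized separately, without a p.

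The genes that followed Cldn15 and Cldn8 most closely were looked up, these being the 2 genes with a log2 difference of at least 1 on AOM/DSS. Candidates were 3170 probes with an SD of at least 0.5 over the 6 AOM/DSS arrays. Over these arrays Cldn15 ran closest to Slc24a3, a sodium, calcium and potassium exchanger (Pearson r = 0.997), Acss1, a mitochondrial acetyl-CoA synthetase (0.995), and Mfsd9 (0.995). Over the 6 water arrays the same probes had r of 0.297, 0.669 and 0.0569 with Cldn15. Cldn8 ran closest to 2 probes of Hmcn1, the extracellular matrix protein hemicentin-1 (0.993 and 0.99 on AOM/DSS, 0.45 and 0.794 on water), and to Wwc2 (0.986 and 0.866). These correlations are over 6 arrays that include both genotypes, and they were the highest among the candidates, so they describe these arrays only.

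Among the other junction genes and their regulators, 2 were called on AOM/DSS, both higher in TSP-1-/-. They were 1 of 15 further claudins and 1 of 14 measured transcription factors linked to claudins. Of all probes 2.78% were called, and the 2 calls are given as single genes, not as a result about junction genes. Of 15 further claudins, 14 had a positive log2 difference (median 0.37, against 0.13 over all probes), 1 was called higher and 0 lower. Of all probes 1.74% were called higher and 1.05% lower, a split that moved with the scaling. The called one, Cldn6, a claudin of embryonic epithelia, was at 3.58, 1.08 and 1.92 on the TSP-1-/- AOM/DSS arrays, against 0.45, -0.17 and -0.33 on the WT AOM/DSS arrays (log2 difference 2.21, limma adjusted p = 0.0259). The groups did not overlap, and TSP-1-/- replicate 1 was the highest, not replicate 3. Grhl3, a grainyhead factor of squamous and other surface epithelia, was at 2.16, 3.08 and 3.16 on the TSP-1-/- AOM/DSS arrays, against 2.16, -0.07 and -0.45 on the WT AOM/DSS arrays (log2 difference 2.25, adjusted p = 0.0307). WT replicate 1 was at the level of the TSP-1-/- arrays here, as it was for Hoxb13. Of 8 squamous epithelial markers, 3 were called higher in TSP-1-/- (Krt14, Krt4 and Ly6d), 0 lower, and 5 were not called, with log2 differences from 0.00 (Sbsn) to 0.75 (Krt13). The mean of the 8 was 0.78, 0.28 and 0.76 on the TSP-1-/- AOM/DSS arrays, against -0.16, 0.00 and -0.22 on the WT AOM/DSS arrays. Whether squamous tissue of the anal end was taken with some samples was not tested.

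The tricellular junction, the junctional adhesion molecules, the plaque and polarity proteins, the adherens junction, the desmosome and the junction proteases and kinases had 0 genes called in either direction, of 5, 6, 16, 10, 7 and 7 measured. Of all probes 2.78% were called, so 0 calls in lists this short do not set these genes apart. Crb3, an apical polarity protein, was lower in TSP-1-/- with an adjusted p of 0.0429 but under 2-fold (log2 difference -0.77). It was at -0.37, -0.52 and -1.04 on the TSP-1-/- AOM/DSS arrays, against -0.09, -0.05 and 0.53 on the WT AOM/DSS arrays. Amot, an angiomotin of junctions and of endothelial cells, was higher with an adjusted p of 0.0338 and also under 2-fold (0.66). Ildr1, a protein of the corners where 3 cells meet, had the largest difference of the tricellular list (-0.92, adjusted p = 0.0519). The median log2 difference was -0.26 in the desmosome list, with 6 of 7 genes negative, and -0.54 in the proteases and kinases, which include Prss8 (-0.83, adjusted p = 0.0785), a membrane protease that acts on junctions. The epithelial markers had a median of -0.32 beside these, with 7 of 8 negative and 0 called, and TSP-1-/- AOM/DSS replicate 3 was the lowest array for them. On water, 0 genes of any of these lists were called, as were 0 of all 28815 probes.

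**Figure D5:**
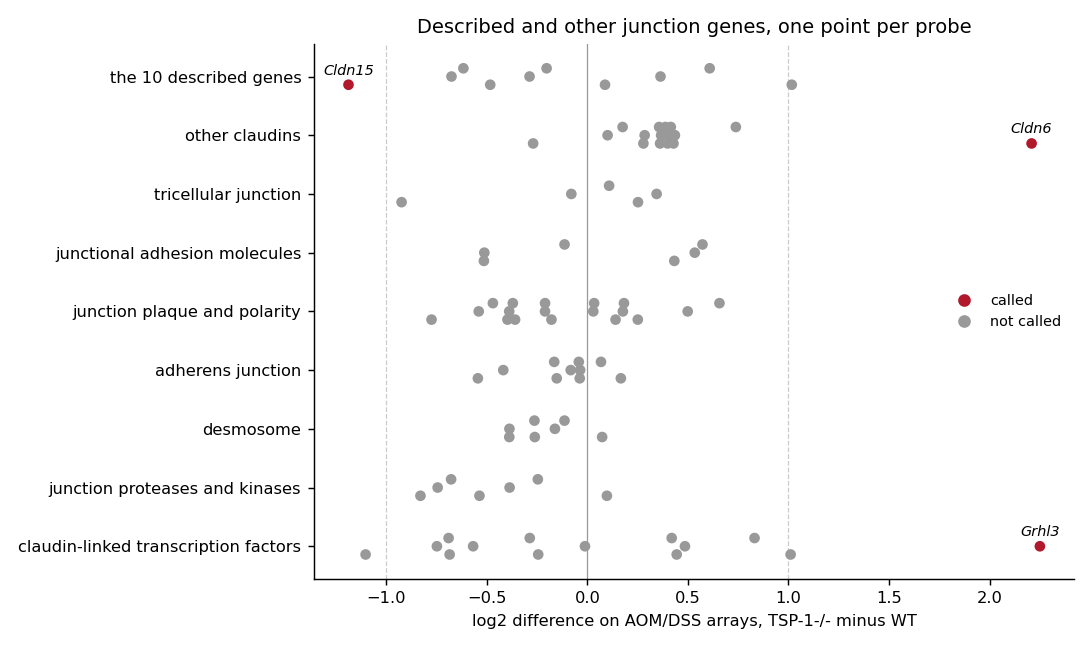
Log2 difference of TSP-1-/- minus WT on the AOM/DSS arrays (horizontal axis) for the 10 described genes and for the probes of 8 other gene lists (rows); red points were called, grey points were not, and dashed lines mark 2-fold. Cldn15 (-1.19), Cldn6 (2.21) and Grhl3 (2.25) are the called genes, and most other claudins lie at small positive differences.

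Of the markers of other cell types, some were called on AOM/DSS, where 1.74% of all probes were called higher and 1.05% lower. Of 5 leukocyte markers, 2 were called higher in TSP-1-/-, Cd79a of B cells (log2 difference 2.69) and Csf1r of macrophages (1.03), and the mean of the 5 was 1.30, 0.49 and 2.71 on the TSP-1-/- arrays, against 0.10, -0.19 and 0.24 on the WT arrays. Endothelial markers were positive in 6 of 6 genes and smooth muscle markers in 0 of 6, with 0 called in both. Of 5 adipocyte markers, Cidec was called lower (-2.23) and 4 were not called, 1 of them with a positive difference. The part of these cell types in the claudin differences was not tested.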

How the data were processed

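The deposited table holds log2 signals that the authors made with the PLIER16 algorithm and quantile normalization and set relative to a baseline, in their methods the median of all 12 samples. The AOM/DSS arrays are on that baseline: of 377 genes in the study's list, 376 had both AOM/DSS means within 0.0001 of exactly 1 probe, against 1 gene for the water means. Only 4.18% of probes had a 12-array median within 0.001 of 0. The labels and the methods name no genome build for the array. The table holds 28853 probes, of which 21789 have 1 symbol in the annotation, 1621 several and 5443 none.

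The log2 values were used as deposited, without a further filter, and 28815 probes with values on all 12 arrays entered the fit. Genotypes were compared in limma 3.58.1 (R 4.3.3), with 1 mean per group over 12 arrays and moderated variances. The 4 groups share 1 estimate of the spread, and 3 arrays per group limit the precision; 3 against 3 arrays cannot give an exact permutation p under 0.1. The study's methods used an analysis of variance with the same adjusted p and fold minimum after filters. The filter on the lowest signals could not be applied to relative values. No 2 arrays were identical.

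The members and lists were chosen with earlier results of these data known. Named were all 10 members, Thbs1 and Hoxb13. Each other list gave up to 3 called genes with the lowest p or, where none was called, the 2 with the lowest p on AOM/DSS. Not all genes picked in this way are printed here. For each member with a log2 difference of at least 1, the 3 most correlated probes were named. Further genes (Cdx1, Cdx2 and the SNAI and ZEB genes) were chosen after their values were seen. Alternatives were other centring and normalization, a shift by epithelial genes, other samples or weights in the fit, a filter on variability, a replicate block and leaving out each array. Promoters were taken from RefSeq for 8 of the 10 members (10 entries); Cldn8 and Cldn23 had none in the table. Figures were drawn with matplotlib 3.10.9 in Python 3.11.15.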

Additional observations from a re-analysis of the deposited data

How the results depend on the processing

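Over the alternatives the signs of the differences of Cldn2, Cldn15, Cldn1, Cldn3, Cldn4, Cldn8, Cldn23 and Ocln on AOM/DSS held in each setting run, whereas calls did not. Cldn15 kept its call when each array was centred on its median (-1.26, adjusted p = 0.0292), after separate quantile normalization of the AOM/DSS and water arrays (-1.16, 0.0136) and with the filter on variability (0.0284), which left 28497 probes and 9 of the 10 genes. It lost the call after the shift by epithelial genes, after quantile normalization of the 12 arrays again (-1.02, adjusted p = 0.0598), with array weights (-1.01, 0.07) and in a fit of the 6 AOM/DSS arrays alone (-1.19, 0.135). Its limma adjusted p ranged from 0.013 to 0.11 when single arrays were left out. Under each of those 4 settings 0 of the 10 genes were called on AOM/DSS, and the number of all probes called was 397 with the shift (345 higher and 52 lower, where the share higher had been 500 of 802), 183 after quantile normalization (78 higher and 105 lower), 381 with weights and 6 in the fit of 6 arrays. The cause was not tested.

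Leaving out 1 array gave 0 to 2 called genes of the 10 and 104 (without WT replicate 3) to 1403 (without TSP-1-/- replicate 2) called probes on AOM/DSS, 0 to 1 called probes on water, and 1 to 292 (without WT AOM/DSS replicate 1) for the difference of the differences. That last count was 18 and 20 after the 2 quantile normalizations, 82 with weights and 7 with the filter, with 0 of the 10 genes among them in each. It could not be run with only 2 groups.

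Changes of sign were limited to differences that were not called. Cldn7 was at 0.071 on AOM/DSS and at 0.058 in the difference of the differences after the shift by epithelial genes, where Ocln was at 0.12. Tjp1 on AOM/DSS was at -9.6e-05 after quantile normalization within each set and between -0.0033 and 0.23 when single arrays were left out. On water the ranges over left-out arrays crossed 0 for Cldn4 (-0.13 to 0.37), Cldn7 (-0.060 to 0.13), Cldn3 (-0.38 to 0.031), Cldn8 (-0.56 to 0.24), Cldn23 (-0.43 to 0.057) and Tjp1 (-0.15 to 0.017), and in the difference of the differences for Cldn4 (-0.0024 to 0.49) and Ocln (-0.29 to 0.039). The pore-forming minus sealing difference on AOM/DSS stayed between -1.39 and -0.89 in the settings run, with the least size when medians replaced means, and between 0.26 and 1.08 on water.

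The sample titles number the replicates and name no pairing between groups. Of 18 same-numbered pairs of arrays in different groups 8 had deviations from the group means that correlated above 0.1 (-0.231 to 0.402). Between the 2 water groups the correlations were 0.0931, 0.281 and 0.402 for replicates 1, 2 and 3. These values do not settle whether the numbers pair the samples. With the replicate number as a block, 2 of the 10 genes were called on AOM/DSS, Cldn15 (-1.19, adjusted p = 0.0398) and Cldn8 (1.02, 0.0451), and 1 probe in the difference of the differences. Cldn8 was not called in the main fit (limma adjusted p = 0.229). The share of all probes called on AOM/DSS with this block is not given here, so the 2 calls cannot be set against it.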
